A study of Caenorhabditis elegans with 4 samples.

Results

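The regions described here are the ASH-2 binding peaks on the arms of Caenorhabditis elegans chromosome V. They are the peaks of the list deposited for the whole series whose midpoint lay below 5231037 or above 15693112, the outer 25% at each end of the 20924149 bp chromosome in the WormBase WS220 build. This gave 500 of 3009 peaks, 268 on the right arm and 232 on the left arm, and each arm measured 5.23 Mb. The same rule gave 60 of the 379 peaks called for ChIP replicate 1, with 36 on the right arm and 24 on the left. It gave 239 of the 1901 peaks called for ChIP replicate 2, with 146 on the right arm and 93 on the left.

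The samples were 2 ASH-2 ChIP libraries and 2 input libraries, all from hermaphrodites of genotype fem-2(b245)III, labelled as young adults with a germline and kept at 20 degrees Celsius per the series' design text. In the labels' growth protocol the animals harvested are gravid. There was no wild type or other genotype, whole animals were used, so soma and germline were not separated, and no values of the input libraries were analysed here. Whether the replicates are separate cultures is not given in the labels, and the differences between their lists may be technical. The lists hold no read counts, and the depth is unknown.

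ASH-2 is a core part of the COMPASS family of enzymes, which place methyl groups on lysine 4 of histone H3 at active promoters. The fem-2 gene encodes a protein phosphatase of the sex determination pathway, and b245 is a temperature-sensitive allele. The arms of C. elegans autosomes recombine more than the centres, are richer in repeats and carry more heterochromatin marks, and many fast-evolving gene families lie there. Chromosome V is known for its families of chemoreceptor genes, membrane receptors with which the worm's sensory neurons detect chemicals. Of 1308 protein-coding genes that bear a chemoreceptor family name (str and most names that begin with sr) in the WBcel235 gene table, 888 were on chromosome V, or 67.9%. That table follows another assembly than the peaks, so no peak was assigned to a gene.

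The right arm carried more ASH-2 peaks than the left in each of the lists. In the series list the density was 51.2 peaks per Mb on the right arm and 44.4 per Mb on the left, a right to left ratio of 1.16. Replicate 1 had 6.88 peaks per Mb on the right arm and 4.59 on the left, and replicate 2 had 27.9 on the right and 17.8 on the left. The ratio was 1.5 in replicate 1 and 1.57 in replicate 2, a mean of 1.53 ± 0.0494 (SD, n = 2). The ratio of the series list lay below that of both replicates. The SD comes from 2 values and does not give the error of either ratio, and replicate 1 had only 36 and 24 peaks. As a share of the arm peaks, the right arm had 53.6% in the series list (95% Wilson interval 49.2 to 57.9%), 60% in replicate 1 (47.4 to 71.4%) and 61.1% in replicate 2 (54.8 to 67.0%). An equal split lay inside the interval for the series list and for replicate 1 and outside it for replicate 2. The share of the series list lay inside the interval of replicate 1 and below that of replicate 2. The intervals of the series list and of replicate 2 overlapped. Such an overlap does not settle whether the lists differ in this share, which was not tested. These intervals cover counting error only and treat peaks as independent, which neighbouring peaks are not, and no test was made over peaks.

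In base pairs the difference between the arms of the series list was larger than in counts. Peaks covered 124.8 kb, or 2.39%, of the right arm and 82.2 kb, or 1.57%, of the left, a ratio of 1.52. The same ratio was 1.44 in replicate 1 and 1.83 in replicate 2. Wide peaks contributed to this. The right arm had 28 series peaks of 1 kb or more and the left arm had 14, and these made up 45.6% of the bases covered on the right arm and 31.7% on the left. The widest on the right arm, V:17384147-17394560, alone spanned 10414 bp, and the widest on the left arm 3469 bp. Replicate 2 had a peak of 10480 bp at the former and replicate 1 had none. The ratios without this peak were not computed.

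**Figure D1:**
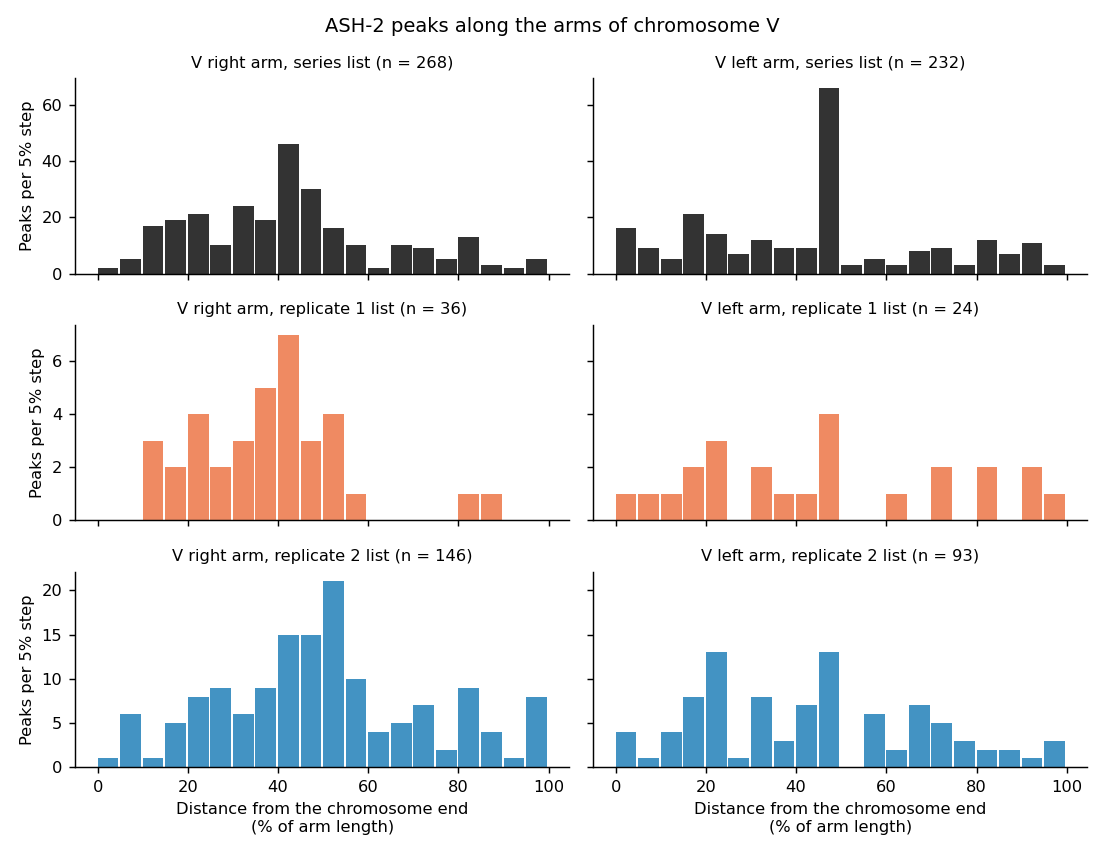
Number of peaks in steps of 5% of the arm (262 kb) against distance from the chromosome end, for the right arm (left column) and left arm (right column) in the series list, replicate 1 and replicate 2. The fullest step of the left arm holds 66 series peaks but 4 of replicate 1 and 13 of replicate 2; the vertical scale differs between rows.

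Series peaks were unevenly spread along each arm. When each arm was split into 3 parts of equal length, the right arm had 45.9 series peaks per Mb in the outer part, 81.4 in the middle and 26.4 in the inner part next to the centre. The left arm had 44.7, 60.2 and 28.1 per Mb from the outer to the inner part. Without its fullest step of 5% of the arm, left out after its count had been seen, the middle of the right arm had 64.8 per Mb and was still the densest part. Of the 105 peaks in the middle of the left arm, 66 lay in 1 such step, and without it the middle had 26.3 per Mb, below the outer and the inner part. The inner part of the right arm held 46 of 268 series peaks (17.2%), 2 of 36 in replicate 1 and 36 of 146 in replicate 2 (24.7%). On the left arm the inner part held 49 of 232 (21.1%), 7 of 24 and 22 of 93 (23.7%). The middle part was the fullest part of the right arm in all 3 lists. On the left arm this held for the series list only, and the outer part was the fullest in replicate 1, with 10 of 24 peaks, and in replicate 2, with 38 of 93.

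On the right arm the 3 fullest bins of 250 kb were those starting at 18500001, with 47 series peaks, at 19000001, with 26, and at 18750001, with 23. They held 35.8% of the series peaks of the arm, 17 of the 36 peaks of replicate 1 (47.2%) and 37 of the 146 of replicate 2 (25.3%). A high share in the series list follows from choosing its fullest bins. The fullest bin of replicate 2 on this arm was the one starting at 18000001, with 23 peaks, where the series list had 15 and replicate 1 had 4. In 9 of the 22 bins of the right arm replicate 1 had no peak. Leaving out the 500 kb from 18500001 to 19000000, with 70 series peaks, gave a right to left ratio of 0.944 in the series list, 1.01 in replicate 1 and 1.38 in replicate 2. That stretch was chosen as the fullest of the right arm and no left arm stretch was removed. The ratio therefore had to fall, and the fall cannot show what the direction rests on. Leaving out the fullest 500 kb of each arm gave 1.08 in the series list.

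On the left arm the 3 fullest bins started at 2250001, with 44 series peaks, at 2500001, with 29, and at 750001, with 20. They held 40.1% of the series peaks of the arm, 7 of the 24 peaks of replicate 1 (29.2%) and 23 of the 93 of replicate 2 (24.7%). The first and second of these bins adjoin. The fullest step of 5% of the arm, a measure chosen after the counts were seen, ran from 2353967 to 2615518 and held 66 peaks, or 28.4% of the series peaks of the left arm, at 252 per Mb. In replicate 1 this step had 16.7% of the left arm peaks, and in replicate 2 it had 13.98%. The median width of its 66 peaks was 244.5 bp, their highest score was 9.64, and 49 of them were overlapped by neither replicate. The fullest step of the right arm, from 18570183 to 18831734, held 46 series peaks, with a highest score of 27.24, and 27 were overlapped by neither replicate. Without its fullest step the left arm gave a right to left ratio of 1.53 in the series list. Across the bins of 250 kb, series counts followed replicate 1 counts with Spearman's rho of 0.82 on the right arm (22 bins) and 0.62 on the left (21 bins). For replicate 2 the values were 0.68 on the right arm and 0.45 on the left. These are descriptions over neighbouring bins, and the lists come from the same libraries.

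**Figure D2:**
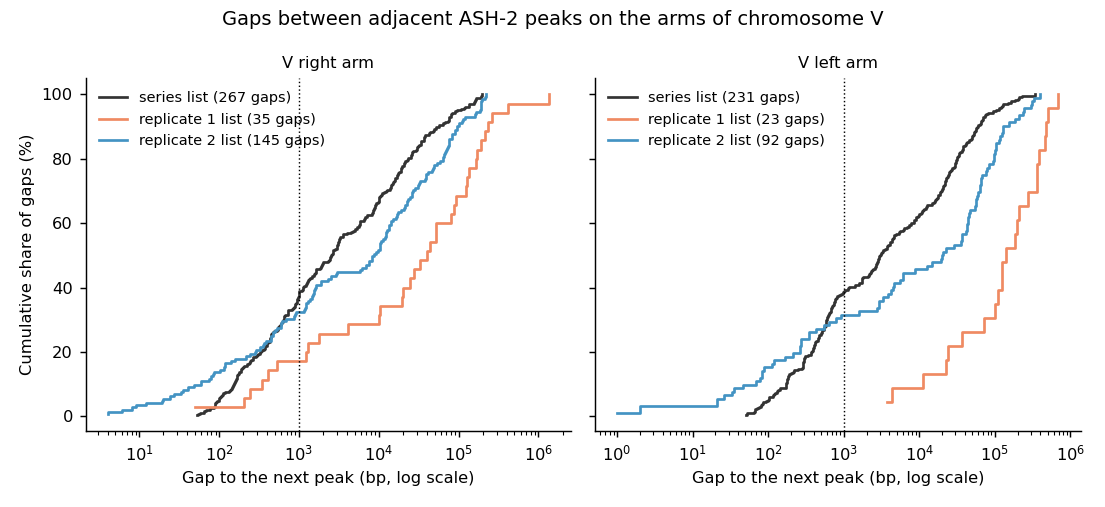
Cumulative share of gaps between adjacent peaks against gap length (bp, log scale) on the right arm (left panel) and left arm (right panel) for the series list, replicate 1 and replicate 2; the dotted line marks 1 kb. On the left arm 38.5% of series gaps and none of the 23 replicate 1 gaps lie under 1 kb.

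Peaks were clumped at short range. The median gap between adjacent series peaks was 2510 bp on the right arm and 2994 bp on the left, whereas the mean gaps were 18219 bp on the right and 21469 bp on the left. Of the gaps, 37.5% were under 1 kb on the right arm (100 of 267, Wilson interval 31.9 to 43.4%) and 38.5% on the left (89 of 231, 32.5 to 44.9%). The share over all chromosomes of the series list was 36.3%. In replicate 2 the shares were 32.4% on the right arm and 31.5% on the left, against 35.5% over its whole list. Replicate 1, whose peaks are wide, had 6 of 35 gaps under 1 kb on the right arm and 0 of 23 on the left, which allows a share of up to 14.3% there by the Wilson interval, against 7.24% over its whole list.

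Joining peaks less than 1 kb apart turned the 268 peaks of the right arm into 168 clusters and the 232 of the left arm into 143. Single peaks made up 115 of the clusters on the right and 98 on the left, and 57.1% of right arm peaks and 57.8% of left arm peaks had a neighbour within that distance. The right arm had 7 clusters of 5 or more peaks and the left arm had 6. The largest of the right arm, V:18056120-18064142, had 7 peaks, and replicate 2 met 6 of them and replicate 1 met 4. Next came V:18678900-18684228 with 6 peaks, all of them overlapped by replicate 1. Of the right arm clusters of 5 that come first by position, V:17265090-17266905 had no replicate peak, while V:18047749-18054596 met 2 peaks of replicate 1 and 7 of replicate 2. The last of these, V:18590852-18594985, met 1 peak of replicate 1 and none of replicate 2.

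The largest clusters of either arm lay together on the left. V:2399902-2404946 and V:2407317-2413437 had 10 peaks each, V:2508188-2513940 had 9 and V:2516348-2521573 had 8. Each of these met 1 peak of replicate 1. Replicate 2 had 3 peaks in the first, 2 in the second, 2 in the third listed and 1 in the last. The fifth cluster of the left arm, V:83348-86724, had 5 peaks that all lay in 1 replicate 1 peak of 3582 bp and met no peak of replicate 2.

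The 4 largest clusters formed a pattern that recurred at a fixed distance, examined after the clusters had been seen. Of the distances from 20 to 1000 kb between midpoints of left arm peaks, counted in steps of 250 bp, the commonest step ran from 108250 to 108500 bp and held 17 pairs. The next held 13, and the mean over 3920 steps was 2.43. A second count took the pairs of peaks within 150 bp, on either side, of a distance of 108250 bp. Within the fullest 5% step of the arm it also gave 17 pairs, not all the same ones, and their distances ran from 108135 to 108306 bp. The first peaks of these pairs lay between 2392103 and 2442109, where the list had 26 peaks, and their partners between 2500393 and 2550155, where it had 25. Of the pairs, 11 were in the large clusters and 6 were outside them. Over the 17 pairs the scores of the partners had a Spearman's rho of 0.68, a description over neighbouring peaks. The peak V:2397819-2398135 scored 6.94 and so did its partner V:2506059-2506429, whereas V:2410419-2410698 scored 5.7 and its partner V:2518363-2519024 scored 8.6. Replicate 1 had 1 such pair, V:2401782-2404146 and V:2509959-2512473, with scores of 145.64 and 185.76. Replicate 2 had 3 such pairs. The genome sequence itself was not analysed here, so whether the stretches that hold the pairs share duplicated sequence was not tested, and it is not known whether their peaks, including the 4 largest clusters, count as separate sites. On the right arm the commonest step held 15 pairs, another step held as many, and the mean was 4.07.

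Long stretches without a series peak were also found on both arms. On the right arm the longest was the last 221516 bp of the chromosome, from 20702634, where neither replicate had a peak. The next ran from 15911487 to 16107701, with 1 replicate 2 peak, and the one after from 16333270 to 16523494, with 2 peaks of replicate 1 and 1 of replicate 2 touching it. The left arm had a stretch of 341923 bp from 362662 to 704584, one of 226107 bp from 3222196 and one of 211061 bp from 1929897. Replicate 1 had no peak in these and replicate 2 had 1, 2 and 1.

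**Figure D3:**
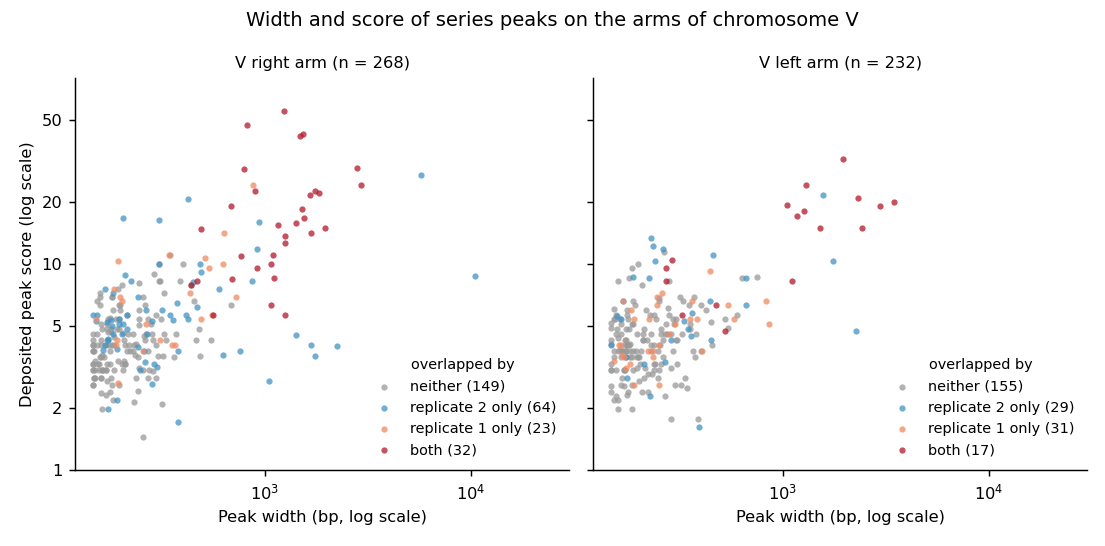
Deposited score against width of each series peak (both axes on log scales) on the right arm (left panel, n = 268) and left arm (right panel, n = 232), coloured by the replicate lists that overlap the peak. Peaks overlapped by both replicates lie toward the upper right, and those overlapped by neither gather at low widths and scores.

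Series peaks on the arms were narrow. The median width was 239.5 bp on the right arm (quartiles 177 and 415 bp) and 229.5 bp on the left (176 and 319.75 bp). The narrowest peak on each arm was 146 bp, as on the other autosome arms and in the centre of chromosome V. Replicate 1 peaks had median widths of 2116.5 bp on the right arm and 1935.5 bp on the left, and replicate 2 peaks of 341 and 319 bp in the same order. The series list was called with MACS v2 and the replicate lists with MACS, and what that contributes to the widths was not tested. Scores were used only as ranks within a list, as the authors did not name their type. The median percentile of the score within the whole series list was 48.95 on the right arm and 46.9 on the left, where 100 is the highest. In replicate 1 the medians were 61.9 on the right arm and 36.4 on the left, and in replicate 2 they were 53.6 and 47.2 in that order. The median was thus higher on the right arm in all 3 lists, which come from the same libraries. In the series list the difference was small, with median scores of 4.66 on the right and 4.56 on the left. There 382 of the 500 arm peaks shared a score with another. The bottom 25% of the list held 22.4% of right arm peaks and 23.7% of left arm peaks. The medians of replicate 1 rest on 36 and 24 peaks. Of right arm series peaks, 10.07% were in the top 10% of the list (27 of 268, Wilson interval 7.02 to 14.3%), against 5.17% of left arm peaks (12 of 232, 2.98 to 8.82%). Width and score rose together, with Spearman's rho of 0.54 on the right arm and 0.41 on the left. This is a description over peaks of 1 list, whose scores took only 165 distinct values over the 500 peaks.

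Each series peak was then set against the peaks of each replicate, counting an overlap of 1 bp or more. Replicate 1 overlapped 103 of the 500 arm peaks, or 20.6% (Wilson interval 17.3 to 24.4%), against 21.6% over the whole series list. Replicate 2 overlapped 142, or 28.4% (24.6 to 32.5%), against 36.6% over the whole list. Both replicates overlapped 49, or 9.8% (7.49 to 12.7%), against 10.6%. Neither overlapped 304, or 60.8% (56.5 to 65.0%), against 52.4%. Replicate 1 alone met 54 peaks, and replicate 2 alone met 93.

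Replicate 2 met a larger share of the right arm peaks than of the left arm peaks, and for replicate 1 no such difference was detectable. On the right arm 55 of 268 peaks were overlapped by replicate 1 (20.5%) and on the left 48 of 232 (20.7%), a difference of -0.17 percentage points (95% Newcombe interval -7.35 to 6.88). Replicate 2 overlapped 96 right arm peaks (35.8%) and 46 left arm peaks (19.8%), a difference of 15.99 points (8.14 to 23.5). Peaks met by neither replicate made up 55.6% of the right arm (149) and 66.8% of the left (155), a difference of -11.2 points (-19.5 to -2.64). Both replicates met 32 right arm peaks (11.9%) and 17 left arm peaks (7.33%), a difference of 4.61 points whose interval, -0.679 to 9.80, includes 0. These intervals again treat peaks as independent. Replicate 2 itself had more peaks on the right arm than on the left, as given above, and what that contributes to the difference was not tested. Unequal replicate 2 shares were also seen on other chromosomes. The right and left arms had 46.2% and 21.7% on chromosome I and 19.05% and 38.2% on chromosome II. They had 19.9% and 30.4% on chromosome III and 28.2% and 30.1% on chromosome IV. Among the 10 autosome arms, the right arm of chromosome V ranked 3 and its left arm 9.

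**Figure D4:**
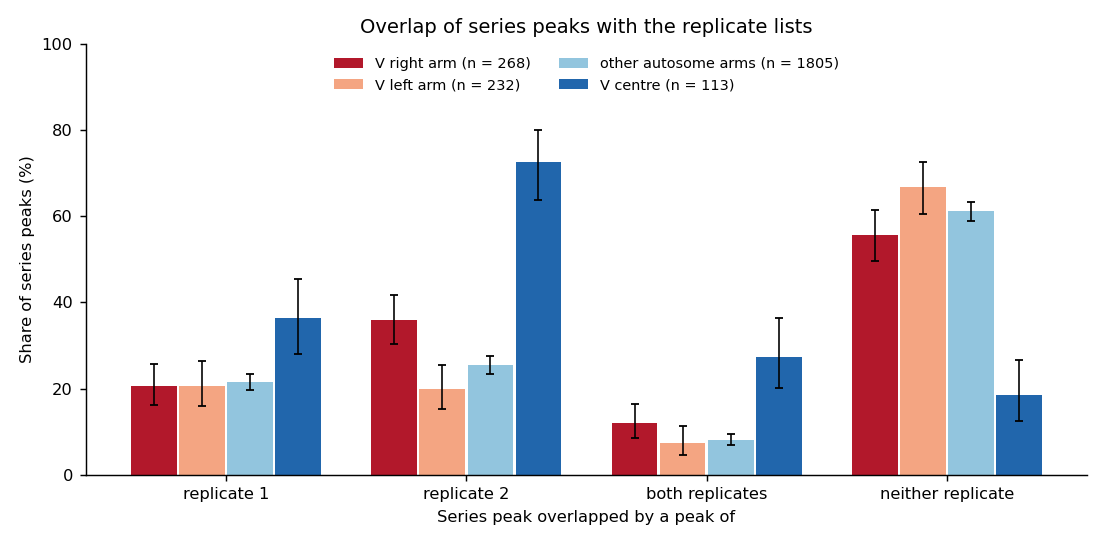
Share of series peaks overlapped by at least 1 bp by a peak of replicate 1, of replicate 2, of both or of neither, for the right and left arms of chromosome V, the arms of the other autosomes and the centre of chromosome V. Bars are shares in percent and error bars are 95% Wilson intervals, which cover counting error only. The arms of chromosome V stand apart from the centre. For replicate 2 the right arm (35.8%) lies above the other autosome arms (25.4%) and the left arm (19.8%) lies below.

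Overlap followed the score. Among the 125 arm peaks with the highest scores, replicate 1 overlapped 61 (48.8%) and replicate 2 overlapped 73 (58.4%), and 34 (27.2%) had no replicate peak. Among the 125 with the lowest scores, replicate 1 overlapped 8 (6.4%), replicate 2 overlapped 15 (12%) and 102 (81.6%) had no replicate peak. The 49 peaks that both replicates met had a median width of 1174 bp, and their median percentile was 92.1. For the 304 met by neither the median width was 198 bp, and the median percentile was 36.4. The whole series list had nearly the same medians. They were 1081.5 bp and 93.4 for peaks met by both replicates, and 200 bp and 36.4 for peaks met by neither. No peak of 1 kb or more lacked a replicate peak: of 42 such peaks, replicate 2 overlapped 42 and replicate 1 overlapped 32. Of the 197 peaks under 200 bp, 154 had no replicate peak and 0 were met by both. These shares by score and by width are given for the arms alone, without those of the whole list. A wider peak can be overlapped more easily, and the list was not compared with shifted positions. The 304 peaks overlapped by neither lay a median of 8042 bp from the nearest peak of either replicate. Of them, 43 (14.1%) were within 1 kb and 22 (7.24%) were beyond 50 kb.

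Seen from the replicates, the series list held all 60 replicate 1 peaks of the arms, against 99.7% over the whole replicate 1 list. It often broke them up. The 103 series peaks that replicate 1 overlapped lay in 60 replicate 1 peaks, of which 30 held 2 or more, and on the left arm this applied to 16 of 24 replicate 1 peaks, against 14 of 36 on the right. Replicate 2 peaks were matched more nearly 1 to 1, as 150 of the 158 that met a series peak met only 1. The share of replicate 2 peaks in the series list was 69.2% on the right arm (101 of 146) and 61.3% on the left (57 of 93), against 58.3% over the whole replicate 2 list. The 81 arm peaks of replicate 2 that the series list lacked had a median score of 79.27, against 145.53 for the 158 that it held. Their median width was 286 bp, against 384.5 bp for those held. Between the replicates, 26 of 36 replicate 1 peaks on the right arm (72.2%) and 13 of 24 on the left (54.2%) were overlapped by replicate 2, against 64.4% over the whole list. In the other direction replicate 1 overlapped 28.1% of replicate 2 peaks on the right arm and 25.8% on the left, against 21.4%.

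Of the 10 strongest sites found by both replicates, 7 lay on the right arm between 18882365 and 19368847. Ranks are counted from the highest score of each list, and scores are the authors' own. The highest score on the arms, 55.52, belonged to V:18982397-18983635, a peak of 1239 bp that ranked 14 of 3009 in the series list, 34 in replicate 1 and 6 in replicate 2. Close to its left lay the next, V:18979710-18980524, of 815 bp, with ranks of 22, 36 and 138 in the same lists. V:18882365-18883891 scored 43.1 and ranked 19 in replicate 1 and 7 in replicate 2, a rank that all replicate 2 peaks tied at 3100 share. V:19193750-19195237 scored 41.89, with ranks of 25 in replicate 1 and 104 in replicate 2. The strongest site of the left arm was V:5008738-5010691, of 1954 bp, with a score of 32.43 and ranks of 113 and 157. It lay near the inner boundary of that arm.

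The sixth, V:16330462-16333269, lay in the sparse inner part of the right arm, was 2808 bp wide and ranked 76 in the series list, 27 in replicate 1 and 7 in replicate 2. V:18958653-18959441 scored 28.95 and V:19364186-19367114 scored 24.34. V:3720389-3721682, on the left arm, scored 24.18 and lay in a cluster of 4. The tenth, V:19367951-19368847, scored 22.73 and ranked 126 in the series list but 291 of 379 in replicate 1. Of these 10 sites, 8 were on the right arm and 2 on the left.

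The 5 strongest arm peaks that no replicate overlapped scored far lower. V:4063364-4063629 scored 11.49 and ranked 347 in the series list. V:19168522-19168866, V:19181535-19181934 and V:19173168-19173475, which lie close together on the right arm, scored 11.12, 10.04 and 10.01. V:4538331-4538527 also scored 10.01.

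The widest arm peak was not among the strongest, whereas the others of the 5 widest ranked from 95 to 169 in the series list. V:17384147-17394560 spanned 10414 bp with a score of 8.77, rank 535, and replicate 2 called nearly the same interval as 1 peak of 10480 bp, while replicate 1 had none there. V:18714374-18720112, of 5739 bp, scored 27.24 and was also met by replicate 2 and not by replicate 1, although the stronger replicate 2 peak there ranked 5. V:4333179-4336647, of 3469 bp on the left arm, was met by both, with ranks of 28 in replicate 1 and 7 in replicate 2. V:724489-727433, of 2945 bp, ranked 15 of 379 in replicate 1, where it was 1 peak of 4054 bp, and 1182 of 1901 in replicate 2, whose widest peak there was 511 bp. The fifth widest, V:19364186-19367114, is among the 10 sites above.

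**Figure D5:**
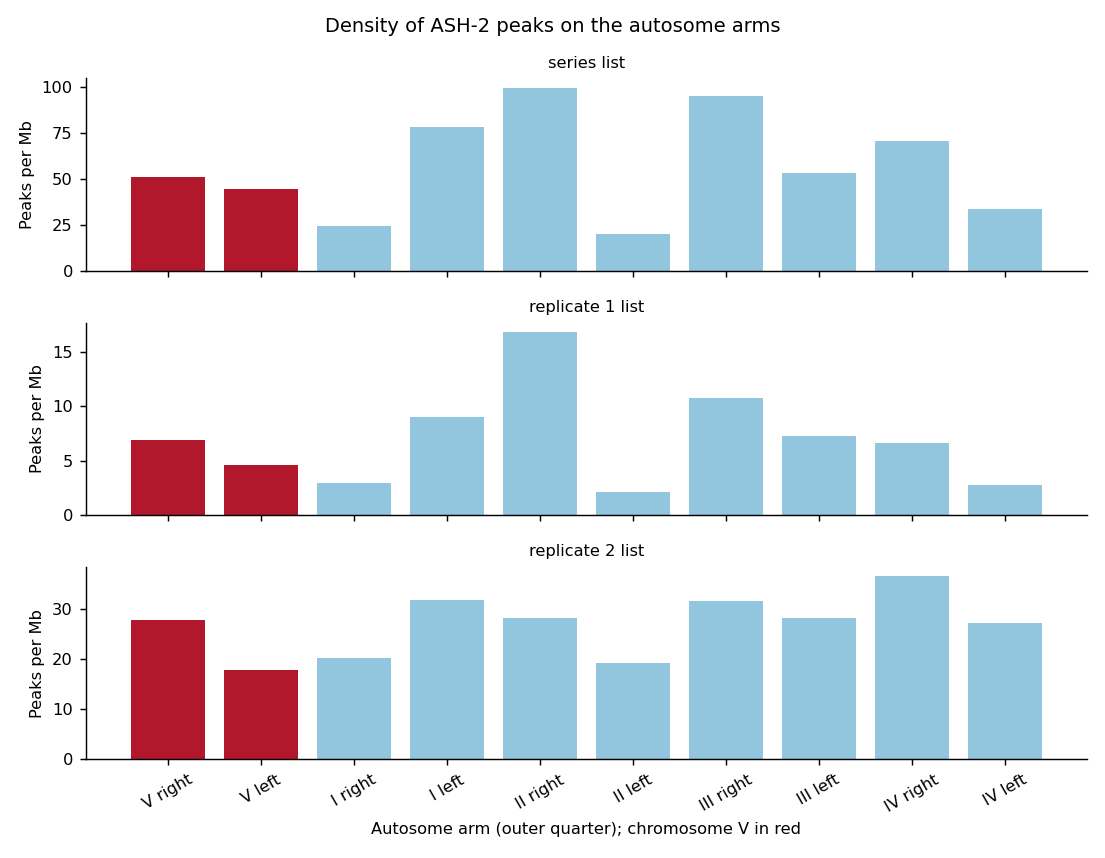
Peaks per Mb on each of the 10 autosome arms (outer 25%) in the series list, replicate 1 and replicate 2, with the right and left arms of chromosome V first, in red. The arms of chromosome V stand in the middle of the range in the series list, and the left arm of chromosome V is the sparsest in replicate 2.

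Chromosome V had sparser arms than the other autosomes pooled. Its arms had 47.8 series peaks per Mb and the arms of chromosomes I to IV had 58.7, a ratio of 0.815. The ratio was 0.802 in replicate 1 and 0.816 in replicate 2, a mean of 0.809 ± 0.0101 (SD, n = 2), and the 3 values lay close together. The other arms were very uneven, from 20.01 per Mb on the left arm of chromosome II to 99.5 per Mb on its right arm. The right arm of chromosome V ranked 6 and the left arm 7 of the 10 arms in the series list. They ranked 5 and 7 in replicate 1, and 6 and 10 in replicate 2. In the series list and in replicate 1 each arm of chromosome V was therefore within the range of the other single arms. In replicate 2 the left arm, at 17.8 per Mb, lay below the sparsest other arm, the left arm of chromosome II at 19.2. Nothing was tested.

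With right and left arm pooled, the make-up of the arm peaks was close to that of the other autosome arms. The single arms lay on either side of the others in 2 of the shares. Replicate 2 met 35.8% of right arm peaks and 19.8% of left arm peaks, against 25.4% on the others. Neither replicate met 55.6% and 66.8% in the same order, against 61.2%. The differences that follow are for the pooled arms. The share met by neither replicate was 60.8% on the arms of chromosome V and 61.2% on the others, a difference of -0.36 percentage points (Newcombe interval -5.24 to 4.39). For replicate 2 the shares were 28.4% and 25.4%, a difference of 2.97 points (-1.33 to 7.52), and for replicate 1 they were 20.6% and 21.6%, a difference of -0.95 points (-4.80 to 3.24). Median widths were 232.5 bp on the arms of chromosome V and 234 bp on the others. Among the 10 arms, the left arm of chromosome V had the second highest share of peaks met by neither replicate, 66.8%, after the right arm of chromosome IV with 66.9%, and the right arm ranked 7.

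The centre of the same chromosome differed more. The arms had 500 series peaks, against 113 in a centre of equal length, 4.42 times as many. The arm to centre ratio was 2.73 in replicate 1 and 1.42 in replicate 2, so its size differed between the lists while the direction did not. Of arm peaks 60.8% and of centre peaks 18.6% were met by neither replicate, a difference of 42.2 points (32.97 to 49.6), and replicate 2 overlapped 28.4% of arm peaks and 72.6% of centre peaks, a difference of -44.2 points (-52.5 to -34.4). Arm peaks were narrower than centre peaks, whose median was 381 bp. The contrast was not particular to chromosome V. The other autosomes had 58.7 series peaks per Mb on their arms and 11.7 in their centres, and neither replicate met 61.2% and 25.8% of these peaks. At the boundaries themselves the peak just inside the left arm, V:5074055-5074414, scored 5.79 and the one just outside, V:5283518-5283683, scored 6.61. At the right arm the peak just inside, V:15713274-15713480, scored 3.38, and the one just outside, V:15682273-15684919, was 2647 bp wide and scored 28.73.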

How the data were processed

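ChIP-seq peaks from 2 ASH-2 ChIP samples were analysed. Per the labels' protocols, ground frozen worms were fixed with 1% formaldehyde for 10 minutes and sonicated. Per the file headers, the lists use WormBase WS220 and were called with MACS (replicates) and MACS v2 (series list). BWA and ce10 are named per the submitters' processing notes. The sources used here do not give the call parameters, the controls or whether replicates were pooled. Peak scores, whose type the authors did not name in the deposited lists, served only to rank peaks within 1 list.

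Peaks were placed by midpoint. The end of each other autosome was set at the last base under a peak of any list. Intervals are 95% Wilson or Newcombe intervals. No test was made, since each replicate gives 1 list. The regions and measures were chosen with earlier results of these data known. Sites named are the 10 highest-scoring arm peaks met by both replicates, the 5 highest met by neither, the 5 widest, the 5 largest clusters, the 3 longest empty stretches and the 3 fullest 250 kb bins of each arm, and the peaks beside each boundary. The overlap, gap, cluster and interval functions were tested on simulated lists. The software was Matplotlib 3.10.9, pandas 2.3.3, SciPy 1.17.1 and NumPy 2.4.6 under Python 3.11.15. No sequence or annotation of WS220 was used here; chromosome counts of gene names come from a WBcel235 table.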

Additional observations from a re-analysis of the deposited data

How the results depend on the processing

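The alternatives that leave out a bin or step, or that end chromosome V at its last covered base, were added after seeing the data. The right to left density ratio was 1.23 with the outer 20% as arms, 1.22 with the higher-scoring 50% of the list, 1.52 in base pairs covered and 1.5 to 1.57 in single replicate lists. Without the fullest 500 kb bin of the right arm it was 0.944, without that of each arm 1.08, without the fullest 5% step of the left arm 1.53 and without that of each arm 1.34. The value of 0.944 came from removing only the fullest bin of the right arm, which held 70 peaks, and no bin of the left arm. The ratio to other autosome arms stayed below 1 in all 8 alternatives, at 0.868 for the outer 20%, 0.829 for the outer 33.3%, 0.7697 for the higher scores, 0.851 in base pairs, 0.779 with clusters counted once, 0.833 with the shorter chromosome V and 0.802 to 0.816 in single replicate lists. With the higher scores, replicate 1 overlapped 34.9%, replicate 2 45.4%, both 20.96% and neither 40.6% of arm peaks. Counting peaks within 500 bp gave 24.4%, 33.2%, 13% and 55.4% in the same order. With the outer 33.3% replicate 2 overlapped 34.1% and neither 56.04%. Without replicate 1 the share with no peak was 71.6%, and without replicate 2 it was 79.4%. The median score percentile was 48.9 with the outer 33.3%, 71.8 with the higher scores, by construction, and 50.2 to 53.03 in single replicate lists. The median width was 335 to 2024.5 bp in single replicate lists, and gaps under 1 kb made up 10.3 to 32.1%. No paired analysis was possible because only ChIP lists were at hand, 1 for each replicate. Depth is unknown, so what it contributes to the length of each list was not examined.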

Other observations

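At the left end of chromosome V, replicate 2 had a peak from base 5 to base 372, with a score of 83.35 and a rank of 1221. Neither the series list, whose first peak ran from 33009 to 33184, nor replicate 1, whose first ran from 83299 to 86880, had a peak there. At the right end the last series peak ran from 20702488 to 20702633 and the last replicate 2 peak from 20701865 to 20702254, whereas the last replicate 1 peak ran from 20394909 to 20396075.

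Peaks inside large clusters differed from single ones in which replicate met them. In clusters of 4 or more, replicate 1 overlapped 40% of right arm peaks and 34.5% of left arm peaks, and among single peaks it overlapped 13.9% and 7.14% in the same order. Replicate 2 overlapped 32.9% and 21.8% in such clusters and 36.5% and 19.4% among single peaks. Replicate 1 peaks are the wider ones and can each take in several series peaks, and what that contributes was not tested.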
